A study of Homo sapiens with 18 samples.

Results

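The 4 arrays of HCT116 clones 47C2 and 45G3, which carry IDH2 R172K, were set against the 4 wild-type arrays, those of clone 16F8 and of the parental line. They were chosen by their titles, and the 8 arrays belong to a series of 18 arrays of 9 HCT116 clones with 2 biological replicates each. HCT116 is a human cell line from a colorectal carcinoma, and the question of the series is the link between IDH1 or IDH2 mutation and epithelial-mesenchymal transition (EMT). The R172K group holds clones 47C2 and 45G3, both IDH2 R172K/+, that is, heterozygous at IDH2 in their titles and in their status at the mRNA level. The wild-type group holds 16F8, which was targeted with IDH1 R132C/+ but is marked as not expressing the mutant allele, and the untargeted parental line. All cells were grown for 6 days without treatment. 47C2, 45G3 and 16F8 are each 1 clone, and parental is 1 line. A difference between a clone and a wild-type line thus cannot be told apart from a difference that arose when the clone was picked. 16F8 is the only wild-type line here that went through gene targeting, and its labels give no IDH2 mutation.

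IDH2 (chromosome 15) encodes the mitochondrial NADP-dependent isocitrate dehydrogenase, which turns isocitrate into 2-oxoglutarate. R172K replaces an active-site arginine, and the altered enzyme reduces 2-oxoglutarate to 2-hydroxyglutarate, a metabolite that competes with 2-oxoglutarate at dioxygenases such as histone and DNA demethylases and prolyl hydroxylases. In EMT, cells give up the junctions, polarity and keratins of an epithelium for a motile, matrix-producing state. ZEB1 is a transcription factor that binds CACCTG-type E-boxes and represses epithelial genes, E-cadherin (CDH1) among them, and the miR-200 family of microRNAs represses ZEB1 in turn.

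Signals are MAS5 intensities, and differences are given as log2(signal + 2.2), tested clone minus wild-type line, with standard errors (SE) and Benjamini-Hochberg adjusted p-values from limma over 12541 genes. The offset holds back the change of weak genes, so their differences are understated. The 8 array medians lay between 12.4 and 13.7, and a signal under the median of its array is called weak here. Replicate arrays correlated at 0.9952 in 47C2, 0.9869 in 45G3, 0.9894 in 16F8 and 0.9892 in parental. The median absolute difference between the 2 arrays of a clone was 0.087 in 47C2, against 0.198 in 45G3, 0.168 in 16F8 and 0.185 in parental. In 1 of the 4 clones, the 2 arrays differed by over 10-fold in a gene of chromosome Y whose level is not given here; the counts without each array are given below. The spiked poly-A controls averaged 5.80 (log2) in array 1 of 45G3, the lowest of the 18 arrays, and 7.28 and 7.25 in array 1 of parental and of 16F8, while the other 5 of these 8 arrays lay between 6.38 and 6.54. The ratio of 3' to 5' ACTB signal was 1.59 in array 2 of 45G3, and between 1.88 and 2.35 in the other 7. Arrays carry no counts, and 2 per clone limit the precision.

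No gene passed an adjusted p of 0.05 when the clone was the replicate (2 R172K clones against 2 wild-type lines, limma on 9 clone means with 4 residual degrees of freedom), which is 0% of 12541. The smallest adjusted p was 0.327, and 1287 genes (10.3%) had an unadjusted p under 0.05, of which 577 (4.60%) were higher and 710 (5.66%) lower in R172K clones. Leaving out 16F8 gave 721 genes and leaving out parental gave 2, whereas leaving out 47C2 or 45G3 gave 0. Without a model, all 4 R172K arrays lay beyond all 4 wild-type arrays for 1346 genes (10.7%). These are called separated below: 579 (4.62%) were higher and 767 (6.12%) were lower in the R172K arrays. Without array 2 of 16F8 the number was 2531, and without array 2 of 45G3 it was 2120; fewer arrays separate more easily. Of the 1346, 68 had passed the signal filter in no R172K clone and 30 in no wild-type line. An exact permutation of 2 against 2 clones could not go below p = 0.333.

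Taken clone by clone, 47C2 differed from 16F8 in 804 genes (6.41%), of which 286 (2.28%) were higher and 518 (4.13%) lower, and from parental in 3512 (28.0%), of which 1779 (14.2%) were higher and 1733 (13.8%) lower. 45G3 differed from 16F8 in 272 genes (2.17%), of which 119 (0.949%) were higher and 153 (1.22%) lower, and from parental in 3741 (29.8%), of which 1898 (15.1%) were higher and 1843 (14.7%) lower. These 4 comparisons, fitted on all 18 arrays (residual degrees of freedom, 9), share their wild-type arrays in pairs, and they compare clones and not genotypes. Between the 2 wild-type lines themselves, 16F8 differed from parental in 2761 genes (22.0%), 1560 higher and 1201 lower, and in 1579 without array 2 of parental and 1694 without array 2 of 16F8. 47C2 differed from 45G3 in 369 genes (2.94%), 133 higher and 236 lower. With 1 array left out and the lone array assumed to vary like the rest, 47C2 against 16F8 gave 292 and 295 genes without array 1 and 2 of 47C2 and 360 and 517 without array 1 and 2 of 16F8, and 47C2 against parental gave 2040 and 2003 without array 1 and 2 of 47C2. 45G3 against 16F8 gave 103 and 152 without array 1 and 2 of 16F8. 45G3 against parental stayed within 1.5 times its count when 1 array was left out. With only the R172K and wild-type clones in the fit, 47C2 against 16F8 gave 463 genes and 45G3 against 16F8 gave 128, and with the poly-A controls as a covariate 45G3 against 16F8 gave 605.

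IDH2 itself passed in 0 of the 4 clone comparisons. IDH2 gave signals of 166 and 165 in 47C2 and 177 and 139 in 45G3, against 124 and 121 in 16F8 and 153 and 102 in parental. The differences of 0.43 for 47C2 and 0.35 for 45G3 against 16F8, and 0.41 and 0.33 against parental (± 0.21 SE) had adjusted p-values from 0.162 to 0.478. A second IDH2 probe set, weaker in parental at 60.1 and 68.3, gave differences of 1.12 and 1.03 for 47C2 and 45G3 against parental but 0.14 and 0.05 against 16F8, and passed in 2 of 4. IDH1, the cytosolic enzyme, was measured at 1382 and 1286 in 47C2 and 1538 and 1256 in 45G3, against 1036 and 1213 in 16F8 and 1694 and 2008 in parental. It fell in both R172K clones relative to parental, with differences of -0.47 in 47C2 and -0.41 in 45G3 (adjusted p = 0.00698 and 0.0153), and its differences from 16F8 were 0.25 and 0.31 (adjusted p = 0.248 and 0.229). 16F8, which was targeted at IDH1, was itself lower than parental in IDH1, at -0.72 ± 0.12 (adjusted p = 0.000356). Whether the targeting bears on this was not tested. The signals do not tell the alleles apart, so they do not check the genotype.

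ZEB1 and vimentin rose and E-cadherin fell in each R172K clone against each wild-type line. ZEB1 had signals of 325 and 285 in 47C2 and 307 and 232 in 45G3, against 102 and 117 in 16F8 and 145 and 154 in parental. The 4 R172K arrays lay above the 4 wild-type arrays, and ZEB1 differed by 1.46 for 47C2 and 1.27 for 45G3 against 16F8, and 1.02 and 0.83 against parental (± 0.15 SE, adjusted p from 4.51e-06 to 0.000471). A weaker ZEB1 probe set, at 32.2 to 48.2 in R172K arrays against 13 to 28 in wild-type arrays, gave 1.45 and 1.00 against 16F8 and 1.05 and 0.59 against parental. The ZEB1 probe set with the highest variance, at 12.9 or less in all 8 arrays, passed in 0 of 4 comparisons. VIM, which encodes the intermediate filament protein vimentin, gave signals of 340.1 and 328 in 47C2 and 264 and 239 in 45G3, against 83.3 and 83.4 in 16F8 and 164 and 132.2 in parental. It differed by 1.98 for 47C2 and 1.57 for 45G3 against 16F8, and 1.17 and 0.76 against parental (± 0.16, adjusted p from 4.63e-07 to 0.00201). FN1, the matrix glycoprotein fibronectin, was measured at 167 and 164 in 47C2 and 271 and 153 in 45G3, against 101 and 88.9 in 16F8 and 123 and 112 in parental. It passed in 3 of 4 comparisons, and 47C2 against parental, at 0.49, did not (adjusted p = 0.099). A weaker FN1 probe set gave 0.34 for 47C2 and 0.03 for 45G3 against 16F8, and 1.21 and 0.90 against parental. Its signals overlapped, at 20.1 to 28.1 in R172K arrays against 8.4 to 23.6 in wild-type arrays. The other FN1 probe sets that passed the signal filter had no overlap.

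CDH1 had signals of 524 and 516 in 47C2 and 734 and 558 in 45G3, against 1004 and 1045 in 16F8 and 1527 and 1596 in parental. The R172K signals thus reached at most 734, against at least 1004 in wild-type arrays. CDH1 differed by -0.97 for 47C2 and -0.68 for 45G3 against 16F8, and -1.58 and -1.28 against parental (± 0.14, adjusted p from 3.87e-07 to 0.012). EPCAM, a cell-surface adhesion protein of epithelia, gave signals of 1701 and 1793 in 47C2 and 1839 and 1908 in 45G3, against 1879 and 2309 in 16F8 and 2232 and 2702 in parental. Here the groups overlapped: EPCAM fell relative to parental, by -0.49 in 47C2 and -0.39 in 45G3 (adjusted p = 0.0034 and 0.0144) and differed from 16F8 by -0.25 and -0.15 (adjusted p = 0.208 and 0.586). 16F8 itself lay between the R172K clones and parental for CDH1, at -0.61 ± 0.14 against parental (adjusted p = 0.00425), while for ZEB1 and VIM it lay further from the R172K clones than parental did, at -0.45 ± 0.15 and -0.81 ± 0.16 against parental (adjusted p = 0.0369 and 0.0018). ZEB2, the paralog of ZEB1, and CDH2, N-cadherin, did not pass the signal filter: ZEB2 gave at most 2.3 on its strongest probe set and CDH2 at most 10.1 in these 8 arrays. As clone means, R172K against wild-type was 1.15 ± 0.29 for ZEB1, 1.37 ± 0.33 for VIM and -1.13 ± 0.27 for CDH1, with adjusted p-values of 0.417, 0.394 and 0.394.

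**Figure D1:**
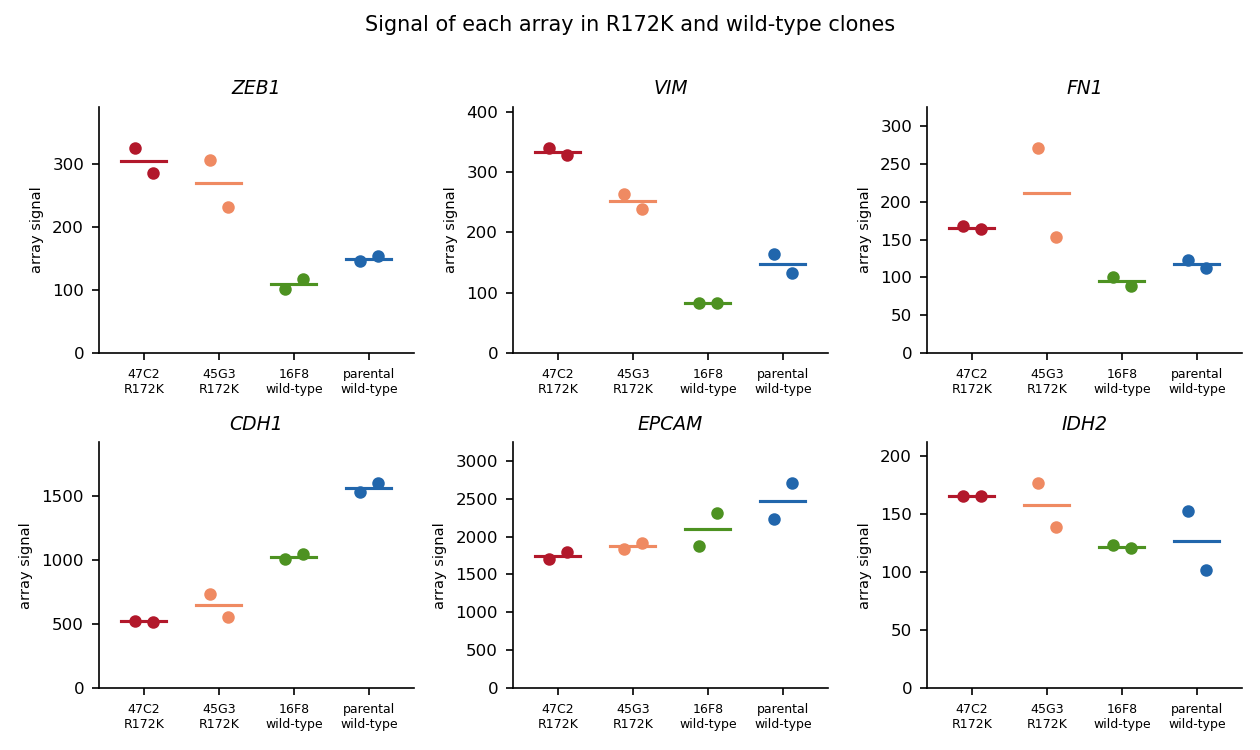
Signals (MAS5 intensity, linear axis from 0) of 6 genes in the 2 arrays of each clone, R172K clones 47C2 and 45G3 left and wild-type lines 16F8 and parental right. Points are arrays and bars are means of 2 arrays. The R172K points of ZEB1 and VIM lie above all wild-type points and those of CDH1 below them, while the points of EPCAM and IDH2 overlap.

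Other EMT transcription factors did not follow ZEB1 as a group. Of 16 listed factors, 15 were on the array and 8 were tested. Of these, 2 (25%) were separated higher (ZEB1 and SNAI2) and 1 (12.5%) lower, against 4.62% and 6.12% of all genes. The list's median R172K minus wild-type difference was -0.04, against -0.0045 over all genes. SOX4, a high-mobility-group factor, was measured at 606 and 584 in 47C2 and 568 and 699.7 in 45G3, against 1199 and 1067 in 16F8 and 951 and 911 in parental. It fell in all 4 comparisons (-0.92 to -0.56). TWIST1, a basic helix-loop-helix factor, had signals of 55.8 and 56.8 in 47C2 and 228 and 139 in 45G3, against 176 and 153 in 16F8 and 149 and 166 in parental. It fell in 47C2 against both lines (-1.50 and -1.45). 47C2 differed from 45G3 by -1.62 ± 0.20 (adjusted p = 0.000168), and 45G3 differed from parental and 16F8 by 0.18 and 0.12 (adjusted p = 0.544 and 0.848).

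The 12 genes with the widest gap upward were ranked by the smallest of their 4 clone differences, so their direction is fixed by that choice and their values are a description. They were FOXQ1, PRSS33, HAS2, GLIS3, DCLK1, PMEPA1, CPA4, SPARC, SGK1, DRAXIN, SYTL5 and IQGAP2, with a smallest difference of 1.05 at the 12th place and 1.03 at the 13th. Of the 12, 10 passed in all 4 comparisons, as did 38 of all 12541 tested genes in the upward direction. The rank uses the same 4 differences, so it favours passing as well. FOXQ1, a forkhead transcription factor, gave signals of 286 and 304 in 47C2 and 482 and 227 in 45G3, against 86.5 and 65.7 in 16F8 and 44.4 and 49.3 in parental. Its differences were 1.94 for 47C2 and 2.10 for 45G3 against 16F8, and 2.60 and 2.77 against parental (± 0.25). GLIS3, a Krüppel-like zinc finger factor, was measured at 126 and 127 in 47C2 and 125 and 111 in 45G3, against 29.0 and 24.4 in 16F8 and 43.9 and 49.4 in parental. Both 47C2 and 45G3 arrays were closely matched for GLIS3, and the differences were 2.16 for 47C2 and 2.06 for 45G3 against 16F8, and 1.40 and 1.30 against parental (± 0.19).

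Among extracellular and signalling genes, SPARC, a matrix glycoprotein, had signals of 391 and 427 in 47C2 and 621 and 339.6 in 45G3, against 186 and 194 in 16F8 and 46.8 and 40.4 in parental. Its wild-type lines stood apart, so the differences were 1.09 for 47C2 and 1.26 for 45G3 against 16F8, and 3.17 and 3.34 against parental (± 0.24). HAS2, which makes hyaluronan, gave signals of 25 and 29.1 in 47C2 and 53.5 and 30.4 in 45G3, against 9.6 and 9.4 in 16F8 and 9.3 and 5.4 in parental. No wild-type HAS2 signal passed 9.6, which is weak. PMEPA1, a membrane protein that dampens TGF-beta signalling, was measured at 69.0 and 63.0 in 47C2 and 47.1 and 24.0 in 45G3, against 9.6 and 11.7 in 16F8 and 19.6 and 9.1 in parental. SGK1, the serum- and glucocorticoid-regulated kinase, had signals of 417 and 388 in 47C2 and 431 and 359 in 45G3, against 159.7 and 173 in 16F8 and 212 and 159 in parental. The SGK1 differences spanned 1.09 to 1.27, the narrowest range of the 12.

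DCLK1, a microtubule-binding kinase that marks tuft cells of the intestine, gave signals of 328 and 317 in 47C2 and 229.5 and 197 in 45G3, against 3.3 and 1.6 in 16F8 and 90.8 and 85.1 in parental. It was near the bottom of the scale in 16F8 and well above the median in parental, and its differences were 6.15 for 47C2 and 5.55 for 45G3 against 16F8, and 1.85 and 1.25 against parental (± 0.20). The 2 proteases were PRSS33, a trypsin-like serine protease, and CPA4, a carboxypeptidase. PRSS33 was measured at 124 and 138 in 47C2 and 266 and 122 in 45G3, against 37.7 and 34.9 in 16F8 and 38.7 and 37.4 in parental. CPA4 had signals of 617 and 578 in 47C2 and 476 and 668 in 45G3, against 212 and 122 in 16F8 and 289 and 223 in parental. Both passed in all 4 comparisons. DRAXIN, a secreted axon-guidance protein, had signals of 124.7 and 131 in 47C2 and 150.5 and 86.8 in 45G3. Its wild-type signals were 63.6 and 22.3 in 16F8 and 61.8 and 46.2 in parental. DRAXIN differed by 1.70 for 47C2 and 1.54 for 45G3 against 16F8, and 1.22 and 1.07 against parental. It passed in 2 of 4, for 47C2 only. SYTL5, a synaptotagmin-like protein, had signals of 21.6 and 33.8 in 47C2 and 38.6 and 28.3 in 45G3. It reached at most 15.6 in wild-type arrays and passed the signal filter in neither wild-type line. SYTL5 differed by 1.05 for 47C2 and 1.32 for 45G3 against 16F8, and 1.10 and 1.37 against parental. It passed in 2 of 4, against parental only. IQGAP2, a scaffold of the cytoskeleton, gave signals of 40.0 and 41.8 in 47C2 and 75.9 and 35.2 in 45G3, against 22.3 and 15.4 in 16F8 and 14.3 and 14.4 in parental.

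Array 1 of 45G3 carried the highest R172K signal in 8 of these 12 genes, and array 2 of 45G3 the lowest in 9 of 12. With array 1 of 45G3 left out, the differences of 45G3 from parental still ran from 0.68 to 2.90 over the 12 genes and those from 16F8 from 0.83 to 5.45. With array 2 left out they ran from 0.90 to 3.77 and from 1.37 to 5.66. The poly-A controls of array 1 and the ACTB ratio of array 2 of 45G3 are given above, and whether they bear on these values was not tested.

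The 12 genes with the widest gap downward were PROM2, TMPRSS4, FXYD3, KRT23, BEX4, NCALD, LCN2, S100A14, LINC02458, AP1M2, VHRT and GPC3, and the rank fixes their direction as well. The smallest difference was -1.35 at the 12th place and -1.32 at the 13th. Of these genes, 11 of the 12 passed in all 4 comparisons, as did 69 of all 12541 tested genes in the downward direction. The rank favours passing here too. PROM2, prominin 2, a membrane protein of epithelial protrusions, was measured at 40.0 and 38.5 in 47C2 and 53.2 and 39.4 in 45G3, against 255 and 204 in 16F8 and 333 and 296 in parental. Its differences were -2.47 for 47C2 and -2.26 for 45G3 against 16F8, and -2.93 and -2.72 against parental (± 0.21), and both R172K clones were alike. KRT23, an epithelial keratin, had signals of 55.6 and 53 in 47C2 and 72.2 and 116 in 45G3, against 369 and 308 in 16F8 and 711 and 654 in parental. The KRT23 differences were -2.59 for 47C2 and -1.86 for 45G3 against 16F8, and -3.60 and -2.87 against parental (± 0.20). LCN2, lipocalin 2, which binds iron-carrying siderophores, gave signals of 27.3 and 24.6 in 47C2 and 25.3 and 30.8 in 45G3, against 106 and 83.9 in 16F8 and 407 and 329 in parental. Its level in 16F8 lay between those of the R172K clones and parental, at -1.93 ± 0.18 against parental (adjusted p = 1.24e-06).

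Several of the 12 were graded between the R172K clones, with 47C2 the lower. Array 2 of 45G3 carried the highest R172K signal in 8 of the 12, and array 1 of 45G3 in 4. With array 1 of 45G3 left out, the 45G3 differences ran from -3.48 to -1.13 against parental and from -2.86 to -1.08 against 16F8. With array 2 left out they ran from -3.74 to -0.79 and from -2.19 to -0.72. S100A14, a calcium-binding protein of epithelia, was measured at 169 and 163 in 47C2 and 229.8 and 368 in 45G3, against 914 and 860.4 in 16F8 and 1505 and 1491 in parental. It was lower in 47C2 than in 45G3, by -0.80 ± 0.18 (adjusted p = 0.0194). FXYD3, a regulator of the sodium pump, had signals of 13.7 and 11 in 47C2 and 33.0 and 35.5 in 45G3, against 132.1 and 131.5 in 16F8 and 211 and 183 in parental. FXYD3 differed between 47C2 and 45G3 by -1.33 ± 0.18 (adjusted p = 0.000278). The long non-coding RNA VHRT gave signals of 16.5 and 17.8 in 47C2 and 56.7 and 79.2 in 45G3, against 288 and 226 in 16F8 and 214 and 144 in parental. It differed between the 2 clones by -1.84 (adjusted p = 0.000951).

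TMPRSS4, BEX4, GPC3, NCALD and LINC02458 were weak in the R172K arrays. LINC02458 was weak in the wild-type arrays too and passed the signal filter in no clone compared here, and TMPRSS4 was also weak in 16F8. TMPRSS4, a transmembrane serine protease, was measured at 0.4 and 0.8 in 47C2 and 0.9 and 0.7 in 45G3, against 12.1 and 8.8 in 16F8 and 19.2 and 14.4 in parental. BEX4 had signals of 6.7 and 6.9 in 47C2 and 6.9 and 7.2 in 45G3, against 37.9 and 23.6 in 16F8 and 32.7 and 29.0 in parental. GPC3 gave signals of 7.1 and 7.8 in 47C2 and 7.4 and 10.2 in 45G3, against 30.0 and 25.1 in 16F8 and 25.3 and 25.9 in parental. GPC3 encodes the proteoglycan glypican 3, and the groups of all 3 genes did not overlap. NCALD, the calcium sensor neurocalcin delta, gave 0.3 and 0.7 in 47C2 and 11.5 and 0.9 in 45G3, against 25.2 and 16.4 in 16F8 and 23.8 and 19.4 in parental, and 45G3 against 16F8 did not pass (adjusted p = 0.0928). LINC02458, a long non-coding RNA, was at 3.3 or less in the 4 R172K arrays, against means of 12.1 in 16F8 and 11.2 in parental.

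**Figure D2:**
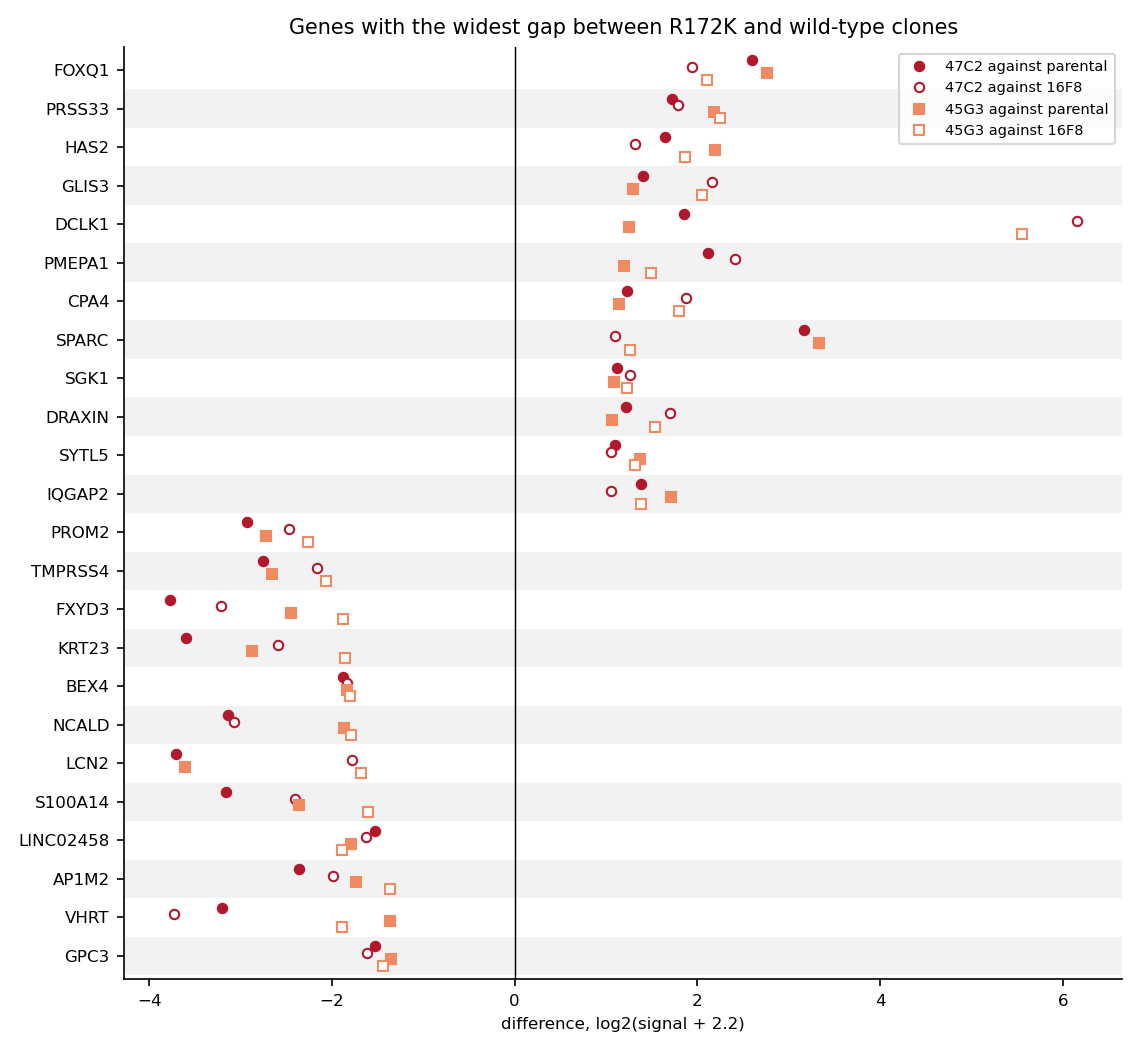
Differences of the 12 genes with the widest gap upward (top) and the 12 with the widest gap downward (bottom), in log2(signal + 2.2); filled symbols are against parental, open symbols against 16F8, circles are 47C2 and squares 45G3. DCLK1, SPARC and LCN2 show the widest spread between references, and SGK1, SYTL5 and BEX4 among the narrowest.

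Epithelial polarity, sorting and protease genes had the largest share of separated members of the 25 lists: 15 of 27 tested (55.6%, against 6.12% of all genes) lay lower in all R172K arrays and 0 lay higher. The list's median R172K minus wild-type difference was -0.54, against -0.0045 over all genes. Against 16F8, 11 of 27 fell in 47C2 and 7 in 45G3 (background lower 4.13% and 1.22%), with medians of -0.55 and -0.33; against parental, 17 fell in 47C2 and 14 in 45G3 (13.8% and 14.7%), with medians of -0.71 and -0.53. 1 member rose in 45G3 against parental, and 0 rose in the other 3 comparisons. The list was assembled with earlier results of these data known, so its share is not independent evidence of a direction.

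AP1M2, the epithelium-specific subunit of the adaptor that sorts proteins to the basolateral membrane, was measured at 44.3 and 42.3 in 47C2 and 55.4 and 83.2 in 45G3, against 181 and 175 in 16F8 and 232 and 232 in parental. RAB25, a small GTPase of apical recycling, had signals of 547 and 511 in 47C2 and 762 and 853 in 45G3, against 1341 and 1239 in 16F8 and 1606 and 1437 in parental. MAL2, a protein of apical transport, gave signals of 559 and 596 in 47C2 and 1126 and 1545 in 45G3, against 2026 and 2356 in 16F8 and 2547 and 2891 in parental. For all 3 genes the 47C2 arrays were lowest, the 45G3 arrays next and the wild-type arrays highest. ANK3, ankyrin-G, which ties membrane proteins to the lateral cytoskeleton, was measured at 38.7 and 36.8 in 47C2 and 80.6 and 72.0 in 45G3, against 175 and 149.8 in 16F8 and 141 and 148 in parental. TMEM125, a membrane protein, had signals of 18.5 and 24.8 in 47C2 and 53.7 and 63.7 in 45G3, against 120.3 and 134 in 16F8 and 367 and 308 in parental. Its differences were -2.45 for 47C2 and -1.09 for 45G3 against 16F8, and -3.84 and -2.48 against parental (± 0.19), so 47C2 against parental was the largest drop of the list. At the other end of the list stood the polarity scaffold PARD3 and the polarity kinase PRKCI, whose R172K minus wild-type differences were both -0.03 and which passed in 0 of 4 comparisons. They were singled out after their values were seen.

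**Figure D3:**
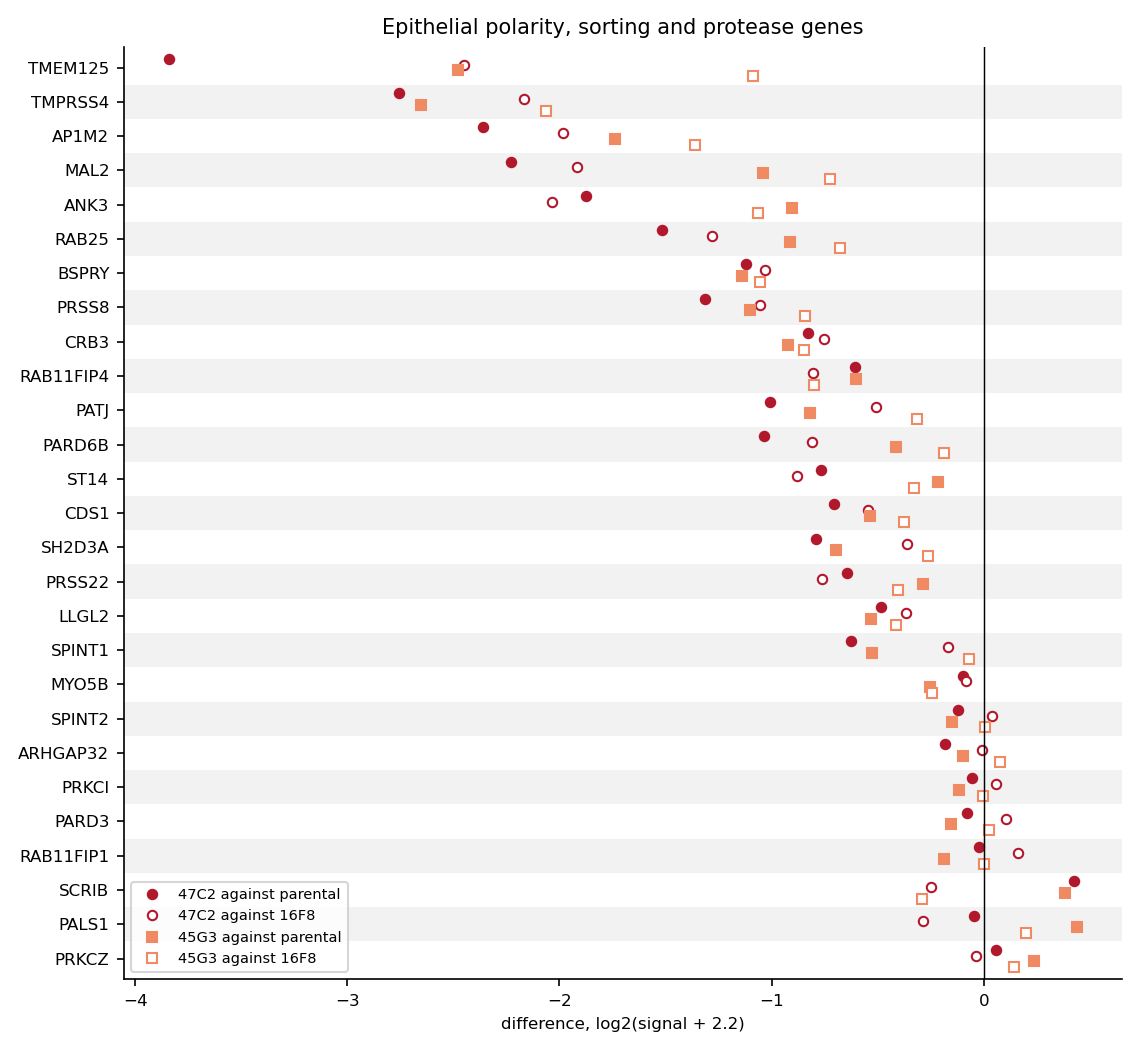
The 4 clone differences of the 27 tested polarity, sorting and protease genes, in log2(signal + 2.2), ordered by their R172K minus wild-type difference; symbols as filled for parental, open for 16F8, circles for 47C2 and squares for 45G3. The genes at the top, TMEM125 to RAB11FIP4, have all 4 points below 0, and those at the bottom scatter around 0.

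Junction genes moved less as a list: 9 of 27 tested (33.3%) were separated lower and 1 (3.7%) higher, with a median of -0.21. Over all genes, 6.12% were separated lower and 4.62% higher. Against 16F8, 5 fell and 1 rose in 47C2 (4.13% and 2.28% of all genes), and 3 fell and 1 rose in 45G3 (1.22% and 0.949%). Against parental, 11 fell and 1 rose in 47C2 (13.8% and 14.2%), and 9 fell and 2 rose in 45G3 (14.7% and 15.1%). CLDN7, a tight-junction claudin, gave signals of 479 and 468 in 47C2 and 439.6 and 652 in 45G3, against 851 and 917 in 16F8 and 1267 and 1524 in parental. It fell in all 4 comparisons (-1.55 to -0.72). OCLN, occludin, was measured at 735 and 786 in 47C2 and 899.5 and 976 in 45G3, against 1131 and 1042 in 16F8 and 1457 and 1581 in parental. It fell in 3 of 4, and 45G3 against 16F8, at -0.21, did not pass (adjusted p = 0.314). PKP3, the desmosomal plakophilin 3, had signals of 151 and 156 in 47C2 and 139.8 and 145 in 45G3, against 226 and 215 in 16F8 and 239 and 234 in parental. CEACAM1, an adhesion molecule of the carcinoembryonic antigen family, went the other way: its signals were 28.4 and 34.4 in 47C2 and 40.0 and 23.5 in 45G3, against 13.8 and 17.7 in 16F8 and 11.8 and 19.9 in parental. It rose against parental in both clones (0.93 and 0.90) and did not pass against 16F8 (0.91 and 0.88, adjusted p = 0.0714 and 0.136).

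Promoters of 3 members of these 2 lists are shown because ZEB1 is known to bind the letters CACCTG, which read CAGGTG on the other strand. CLDN7 and CRB3 hold the most matches among the members separated lower with a window. AP1M2, one of the 12 genes with the widest gap downward, holds as many as PATJ in the next place and was taken by alphabetical order. Each window runs from 250 bases before to 50 after the gene's start in RefSeq on GRCh38.p14, 5′ to 3′ on the gene's strand, with each match in capitals. CLDN7 lies at chr17:7262429-7262728 (minus strand) with 5 matches, CRB3, which encodes an apical polarity protein, at chr19:6464021-6464320 (plus strand) with 5, and AP1M2 at chr19:10587263-10587562 (minus strand) with 3.
CLDN7: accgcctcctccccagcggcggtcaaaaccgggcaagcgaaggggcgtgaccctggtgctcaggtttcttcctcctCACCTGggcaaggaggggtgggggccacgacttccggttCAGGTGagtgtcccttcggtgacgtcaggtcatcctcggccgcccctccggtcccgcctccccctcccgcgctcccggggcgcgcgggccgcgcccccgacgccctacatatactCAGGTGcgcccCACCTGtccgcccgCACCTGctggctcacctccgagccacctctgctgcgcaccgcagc
CRB3: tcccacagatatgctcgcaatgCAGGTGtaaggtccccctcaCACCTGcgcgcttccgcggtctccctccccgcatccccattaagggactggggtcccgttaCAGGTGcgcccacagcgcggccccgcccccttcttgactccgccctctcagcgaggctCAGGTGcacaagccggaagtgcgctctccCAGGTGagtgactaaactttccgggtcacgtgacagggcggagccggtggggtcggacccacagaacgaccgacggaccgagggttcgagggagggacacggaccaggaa
AP1M2: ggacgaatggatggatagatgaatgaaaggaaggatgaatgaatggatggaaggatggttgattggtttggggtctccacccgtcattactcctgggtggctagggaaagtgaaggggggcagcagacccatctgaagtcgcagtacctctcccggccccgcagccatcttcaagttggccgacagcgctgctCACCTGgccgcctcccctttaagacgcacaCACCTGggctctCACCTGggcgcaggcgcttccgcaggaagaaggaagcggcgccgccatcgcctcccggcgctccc
Of 35116 promoter windows in the table, 20.6% hold at least 1 match, as do 24.3% of the tested genes with a window. Among all tested members of the 2 lists, 21 of 34 with a window (61.8%) held a match, whether separated or not. Of the 24 members separated lower, 14 had a window and 10 of these held a match (71.4%). Since fewer than 80% had a window, no share is set against another. The 3 promoters shown were picked for their matches, whereas those of TMEM125, CLDN4, CLDN12 and SH2D3A, also separated lower, held 0. A match is a description of letters, and binding was not measured here. CRB3 itself gave 31.5 and 25.2 in 47C2 and 25.7 and 26.8 in 45G3, against 57.3 and 41.8 in 16F8 and 52.3 and 51.3 in parental.

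Regulators of the epithelial state included 6 of 16 tested genes separated lower (37.5%) and 0 higher (6.12% and 4.62% of all genes), with a median of -0.30. GRHL2, a grainyhead factor that maintains epithelia, was measured at 98.7 and 57.0 in 47C2 and 180.3 and 258 in 45G3, against 475 and 486 in 16F8 and 532 and 459 in parental. It fell in all 4 comparisons (-2.68 to -1.15) and was -1.50 ± 0.25 in 47C2 against 45G3 (adjusted p = 0.00228). ESRP1, which directs epithelial splicing, had signals of 1053 and 977 in 47C2 and 1100.1 and 1087 in 45G3, against 1368 and 1531 in 16F8 and 2103 and 2048 in parental. It fell in 3 of 4 comparisons. EHF, an ETS factor of epithelia, gave signals of 1137 and 1083 in 47C2 and 1010.4 and 934 in 45G3, against 1499 and 1504 in 16F8 and 1527 and 1595 in parental. EHF fell in all 4 comparisons (-0.68 to -0.44), and 47C2 against 45G3 was 0.19 (adjusted p = 0.287). KLF4, by contrast, was measured at 244 and 259 in 47C2 and 224 and 267 in 45G3, against 220.1 and 199.9 in 16F8 and 634 and 705 in parental. Its fall was against parental only (-1.40 and -1.44), while the differences from 16F8 were 0.26 and 0.22 (adjusted p = 0.229 and 0.435), and 16F8 against parental was -1.66 ± 0.12.

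Keratins and epithelial S100 genes held 5 of 19 tested separated lower (26.3%) and 0 higher (6.12% and 4.62% of all genes), with a median of -0.33. Against 16F8, 3 fell in 47C2 and 2 in 45G3 (4.13% and 1.22% of all genes), with medians of 0.03 and 0.02. Against parental, 10 fell and 1 rose in each clone (13.8% and 14.2% of all genes in 47C2, 14.7% and 15.1% in 45G3). KRT20, a keratin of differentiated colon epithelium, had signals of 9.9 and 10.2 in 47C2 and 20.3 and 23.2 in 45G3, against 42.0 and 44.8 in 16F8 and 44.9 and 37.5 in parental. KRT7, a simple-epithelial keratin, gave signals of 22.2 and 28.8 in 47C2 and 23.6 and 32.0 in 45G3, against 22.4 and 29.7 in 16F8 and 144 and 133 in parental. KRT7 in both R172K clones was level with 16F8, at -0.03 and 0.08, and fell against parental (-2.35 and -2.24).

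Mesenchymal and matrix genes as a list did not move one way: of 50 listed, 35 were tested, and the median was -0.12. Of the 35, 3 (8.57%) were separated higher and 3 (8.57%) lower, against 4.62% and 6.12% of all genes. Against 16F8, 4 rose and 3 fell in 47C2 (2.28% and 4.13% of all genes), and 4 rose and 0 fell in 45G3 (0.949% and 1.22%). Against parental, 3 rose and 10 fell in 47C2 (14.2% and 13.8%), and 6 rose and 11 fell in 45G3 (15.1% and 14.7%). VIM, FN1 and SPARC, described above, were the 3 separated higher. TIMP3, an inhibitor of matrix metalloproteinases, was measured at 0.8 and 5.0 in 47C2 and 12.9 and 16.5 in 45G3, against 21.1 and 17.1 in 16F8 and 23.9 and 20.6 in parental. It fell in 47C2 against both wild-type lines (-2.39 and -2.19) but not in 45G3 (-0.54 and -0.34, adjusted p = 0.311 and 0.75). COL6A3, a collagen VI chain, gave 1.7 and 0.4 in 47C2 and 2.0 and 4.5 in 45G3, against 5.2 and 3.4 in 16F8 and 23.2 and 22.3 in parental, and passed against parental only.

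In the TGF-beta pathway, 3 of 35 tested genes (8.57%) were separated higher and 1 (2.86%) lower (4.62% and 6.12% of all genes), with a median of -0.06. TGFB2, a TGF-beta ligand, had signals of 69.3 and 71.0 in 47C2 and 194 and 128 in 45G3, against 56.6 and 50.4 in 16F8 and 67.1 and 52.8 in parental. It rose in 45G3, by 1.37 against parental and 1.52 against 16F8, and 47C2 against 45G3 was -1.14 (adjusted p = 0.0051). TGFBI, a TGF-beta-induced matrix protein, gave signals of 0.7 and 2.8 in 47C2 and 24.5 and 18.7 in 45G3, against 0.7 and 1.0 in 16F8 and 8.2 and 0.6 in parental. It was above the array median in the 45G3 arrays and weak in the others. BMP4, a bone morphogenetic protein, was measured at 419.6 and 401 in 47C2 and 501 and 445 in 45G3, against 475 and 628 in 16F8 and 181 and 136 in parental. The R172K clones were 1.37 and 1.57 above parental and -0.41 and -0.21 from 16F8 (adjusted p = 0.16 and 0.613).

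Of 27 tested YAP and TEAD targets, 3 (11.1%) were separated higher and 0 lower (4.62% and 6.12% of all genes), with a median of 0.09. CCN2, connective tissue growth factor, had signals of 124 and 118 in 47C2 and 113 and 142 in 45G3, against 76.4 and 36.6 in 16F8 and 69.1 and 51.5 in parental. It rose in all 4 comparisons, by 0.99 to 1.22. NT5E, the ecto-nucleotidase CD73, gave signals of 929 and 981 in 47C2 and 611 and 1043 in 45G3, against 723 and 649 in 16F8 and 1915 and 2221 in parental. It fell against parental only, where 16F8 was also lower (-1.59 ± 0.17).

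The list of 2-oxoglutarate-dependent dioxygenases was close to the background of 4.62% separated higher and 6.12% lower over all genes. Of 55 tested 2-oxoglutarate-dependent dioxygenases, 3 (5.45%) were separated higher and 3 (5.45%) lower, with a median of -0.01. RIOX1, a ribosomal oxygenase, was measured at 208 and 218 in 47C2 and 292 and 319.9 in 45G3, against 459.8 and 458 in 16F8 and 385 and 373 in parental. It fell in all 4 comparisons (-1.10 to -0.31). P3H2, a collagen prolyl 3-hydroxylase, had signals of 48.2 and 58.5 in 47C2 and 62.2 and 42.8 in 45G3, against 31.8 and 32.0 in 16F8 and 33.7 and 29.0 in parental. It rose in 3 of 4, and 45G3 against 16F8 did not pass (0.66, adjusted p = 0.0785). In the separate list of DNA methylation and Polycomb genes, 2 of 24 tested (8.33%) were separated higher and 0 lower. EED, a core Polycomb subunit, gave signals of 655 and 656 in 47C2 and 535 and 623 in 45G3, against 478 and 476 in 16F8 and 372 and 384 in parental. DNMT1, the maintenance methyltransferase, rose against parental (0.52 and 0.60) and differed by 0.03 and 0.10 from 16F8 (adjusted p = 0.947 and 0.788). Of 25 tested IDH and 2-hydroxyglutarate enzyme genes, 0 were separated higher and 1 (4%) lower, with a median of 0.05.

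Hypoxia-induced genes, many of them driven by hypoxia-inducible factors, whose alpha subunits prolyl hydroxylases mark for degradation, were separated lower in 4 of 36 tested (11.1%) and higher in 0. Over all genes, 6.12% were separated lower and 4.62% higher. Against 16F8, 8 of the 36 fell in 47C2 and 0 rose (4.13% and 2.28% of all genes), and 0 fell and 1 rose in 45G3 (1.22% and 0.949%). Against parental, 4 rose and 5 fell in 47C2 (14.2% and 13.8% of all genes), and 6 rose and 6 fell in 45G3 (15.1% and 14.7%). PDK1, a kinase that shuts pyruvate dehydrogenase, was measured at 451 and 438 in 47C2 and 466 and 444 in 45G3, against 688 and 642 in 16F8 and 689.6 and 599.7 in parental. It fell in 3 of 4 comparisons. SLC2A3, the glucose transporter GLUT3, had signals of 297 and 326 in 47C2 and 770.4 and 642 in 45G3, against 363 and 334 in 16F8 and 352 and 341 in parental. It rose in 45G3 (1.02 against parental and 1.01 against 16F8), and 47C2 against 45G3 was -1.17 (adjusted p = 7.64e-05).

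The counts of several lists differed between the wild-type references. Genes of the ATF4 response and of serine synthesis, which cells raise when amino acids are short or the endoplasmic reticulum is stressed, fell in 26 of 34 tested against parental in 47C2 and in 26 in 45G3 (13.8% and 14.7% of all genes), with medians of -0.96 and -0.95, while 2 rose in 47C2 and 3 in 45G3. Against 16F8, 0 fell and 3 rose in 47C2 (4.13% and 2.28% of all genes), and 1 fell and 0 rose in 45G3 (1.22% and 0.949%). The medians were 0.09 and 0.02. 16F8 against parental gave 26 lower (9.58% of all genes) and a median of -1.04. TRIB3, a pseudokinase induced by ATF4, gave signals of 133 and 150.3 in 47C2 and 125 and 174 in 45G3, against 151 and 151 in 16F8 and 847 and 887 in parental. The 3 targeted clones were level and parental stood apart: TRIB3 was -0.10 for 47C2 and -0.03 for 45G3 against 16F8, and -2.60 and -2.54 against parental in the 4 comparisons, and -2.50 ± 0.16 in 16F8 against parental (adjusted p = 1.46e-08). CHAC1, which degrades glutathione, was measured at 30.7 and 33.0 in 47C2 and 25.5 and 40.5 in 45G3, against 21.1 and 34.5 in 16F8 and 239.9 and 306 in parental. ASNS, asparagine synthetase, had signals of 1195 and 1192 in 47C2 and 895 and 1068 in 45G3, against 979 and 1099 in 16F8 and 2689.9 and 3269.9 in parental.

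For DNA replication genes the signs were turned round. Against parental, 38 of 45 rose and 1 fell in 47C2, and 39 rose and 1 fell in 45G3, with medians of 0.73 and 0.86. Over all genes, 14.2% were higher than in parental in 47C2 and 15.1% in 45G3. Against 16F8, 0 passed in either direction in both clones, with medians of -0.12 and 0.04. 16F8 against parental had 40 higher (12.4% of all genes) and a median of 0.78. MCM4, a subunit of the replicative helicase, gave signals of 1499 and 1585 in 47C2 and 1398 and 1306 in 45G3, against 1113 and 1272 in 16F8 and 588 and 588 in parental. POLA2, a subunit of DNA polymerase alpha, was measured at 149 and 143 in 47C2 and 154 and 155 in 45G3, against 161 and 176 in 16F8 and 47.8 and 48.4 in parental. The parental arrays were lowest for both genes. 5 of the 45 (11.1%) were still separated higher, against 4.62% of all genes. Of 35 tested mitosis genes, 13 rose against parental in each clone (14.2% of all genes in 47C2 and 15.1% in 45G3), 0 fell in 47C2 and 1 in 45G3, and 0 passed against 16F8. Even so, 5 of the 35 (14.3%) were separated higher and 0 lower, against 4.62% and 6.12% of all genes.

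**Figure D4:**
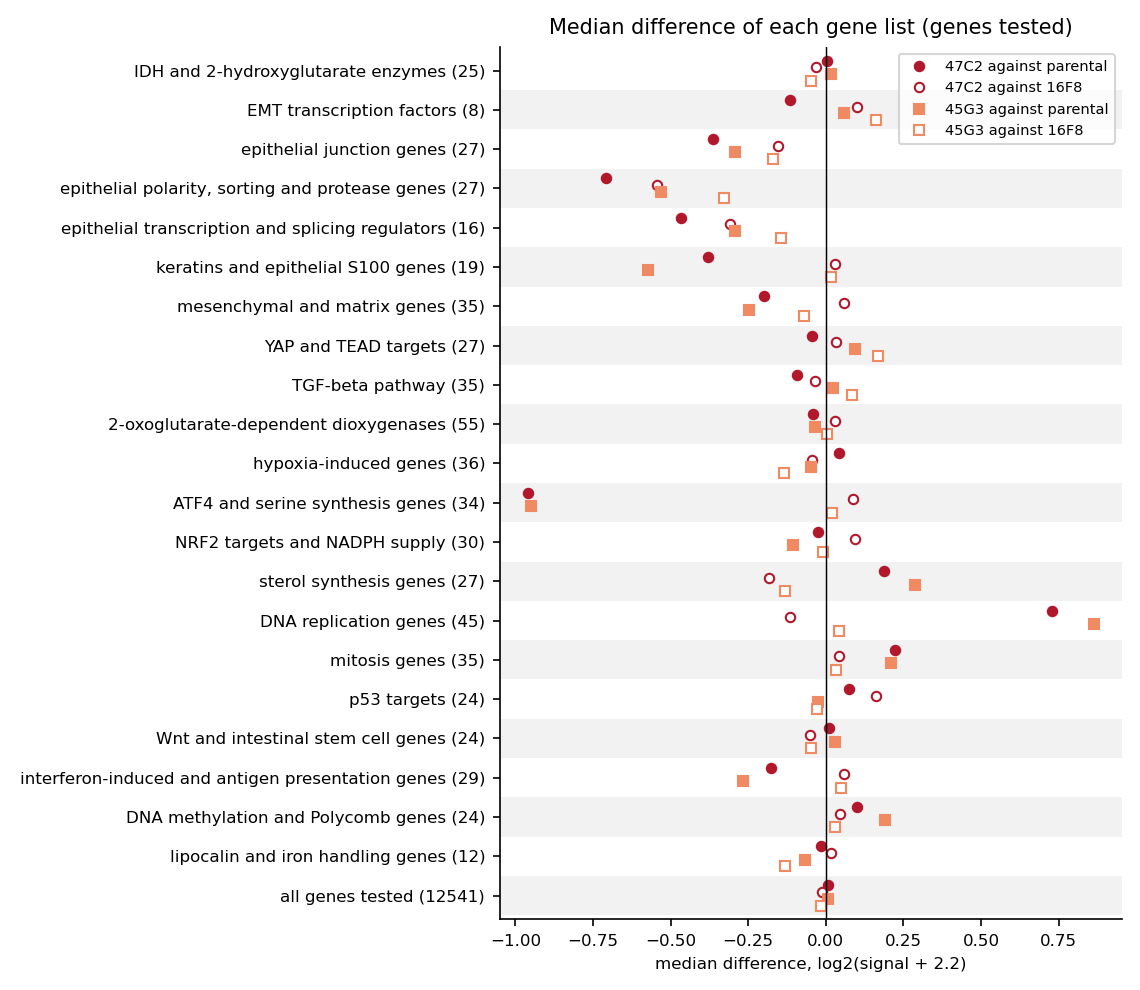
Median difference, in log2(signal + 2.2), of the tested genes of each list with at least 8 of them, with the number tested in brackets and all genes at the bottom; filled symbols are against parental, open against 16F8, circles 47C2 and squares 45G3. The polarity list lies below 0 in all 4 comparisons (-0.71, -0.55, -0.53 and -0.33), whereas the ATF4 and DNA replication lists leave 0 only in the filled symbols.

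Sterol and fatty acid synthesis genes rose in 9 of 27 against parental in 47C2 and in 14 in 45G3 (14.2% and 15.1% of all genes), and 0 fell in 47C2 and 2 in 45G3. Against 16F8, 6 fell and 2 rose in 47C2 (4.13% and 2.28% of all genes), and 0 passed in 45G3. FASN, fatty acid synthase, had signals of 341 and 296 in 47C2 and 387 and 414 in 45G3, against 265 and 389 in 16F8 and 152 and 174 in parental. Of 24 p53 targets, 3 (12.5%) were separated higher and 0 lower (4.62% and 6.12% of all genes). PLK2, a kinase induced by p53, gave signals of 1901 and 1810.3 in 47C2 and 1666 and 1308 in 45G3, against 1089.7 and 1019.9 in 16F8 and 841 and 922 in parental. It rose in all 4 comparisons, by 0.48 to 1.07. Of 30 NRF2 and NADPH genes, 2 (6.67%) were separated higher (4.62% of all genes) and 1 (3.33%) lower (6.12% of all genes). That 1 was ABCC2, a bile-canalicular export pump, which had signals of 219 and 221 in 47C2 and 236 and 232 in 45G3, against 398 and 326 in 16F8 and 346 and 281 in parental. It fell in all 4 comparisons (-0.70 to -0.41).

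Wnt and intestinal stem cell genes were separated higher in 1 of 24 (4.17%) and lower in 1 (4.17%), against 4.62% and 6.12% of all genes. AXIN2, a feedback target of Wnt, had signals of 417 and 368 in 47C2 and 589.5 and 427 in 45G3, against 492 and 474 in 16F8 and 139 and 169 in parental. It rose against parental (1.34 and 1.70) and was -0.30 and 0.06 from 16F8 (adjusted p = 0.387 and 0.931). DKK1, a secreted Wnt inhibitor, rose in 47C2 against both lines (0.61 and 0.32) and in 45G3 against 16F8 (0.44), and 45G3 against parental was 0.15 (adjusted p = 0.322). Interferon-induced and antigen presentation genes were separated higher in 2 of 29 (6.9%) and lower in 4 (13.8%), against 4.62% and 6.12% of all genes. IFIT1, an interferon-induced RNA-binding protein, gave signals of 226 and 209 in 47C2 and 334 and 243 in 45G3, against 191 and 146 in 16F8 and 152 and 135 in parental. HLA-F, a class I molecule, was measured at 432 and 455 in 47C2 and 494 and 432 in 45G3, against 589 and 562 in 16F8 and 697 and 709.8 in parental. These 2 lay on opposite sides, with no overlap between R172K and wild-type arrays in either. Of 12 iron and lipocalin genes, 2 (16.7%) were separated lower, LCN2 among them, and 0 higher (6.12% and 4.62% of all genes).

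The 2 R172K clones differed from each other in named genes. SYK, a tyrosine kinase, had signals of 2.9 and 0.6 in 47C2 and 31.3 and 43.2 in 45G3, against 47.3 and 66.1 in 16F8 and 55.4 and 56.3 in parental. 47C2 against 45G3 was -3.37 ± 0.30 (adjusted p = 5.33e-06), and 45G3 differed from parental and 16F8 by -0.57 and -0.58 (adjusted p = 0.162 and 0.408). GALNT3, which starts mucin-type O-glycans, gave signals of 8.9 and 7.8 in 47C2 and 61.3 and 80.2 in 45G3, against 182 and 157 in 16F8 and 261 and 323 in parental. It fell in all 4 comparisons, and the fall was deeper in 47C2, by -2.78 ± 0.19 against 45G3 (adjusted p = 4.27e-07). ILDR2, an immunoglobulin-domain membrane protein, was measured at 12.8 and 14.4 in 47C2 and 173 and 124 in 45G3, against 57.1 and 77.2 in 16F8 and 36.5 and 23.7 in parental. It moved in opposite directions: ILDR2 fell in 47C2 (-2.12 against 16F8 and -1.005 against parental) and rose in 45G3 (1.11 and 2.23).

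The 4 genes most above 45G3 in 47C2 were CCDC102A, ARHGAP24, FCGR2A and SYTL2. ARHGAP24, a GTPase-activating protein for Rac, had signals of 40.0 and 55.7 in 47C2 and 10.1 and 12.1 in 45G3, against 18.2 and 20.1 in 16F8 and 21.0 and 16.1 in parental. SYTL2, a synaptotagmin-like protein, gave signals of 174 and 177 in 47C2 and 56.9 and 43.4 in 45G3, against 45.7 and 36.1 in 16F8 and 58.8 and 51.4 in parental. Both rose in 47C2 against both wild-type lines and passed in neither comparison of 45G3. FCGR2A, an Fc receptor gene, was measured at 23.1 and 26.7 in 47C2 and 5.1 and 5.1 in 45G3, against 11.8 and 10.7 in 16F8 and 37.1 and 32.1 in parental. CCDC102A, a coiled-coil protein gene, had signals of 13.4 and 11.6 in 47C2 and 1.5 and 1.2 in 45G3, against 13.5 and 16.6 in 16F8 and 1.1 and 5.0 in parental. For these last 2 the wild-type lines also stood apart from each other. The 47C2 against 45G3 count of 369 was 92 and 95 without array 1 and 2 of 47C2 and 232 without array 2 of 45G3, and it was 1128 with the poly-A controls as a covariate.

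**Figure D5:**
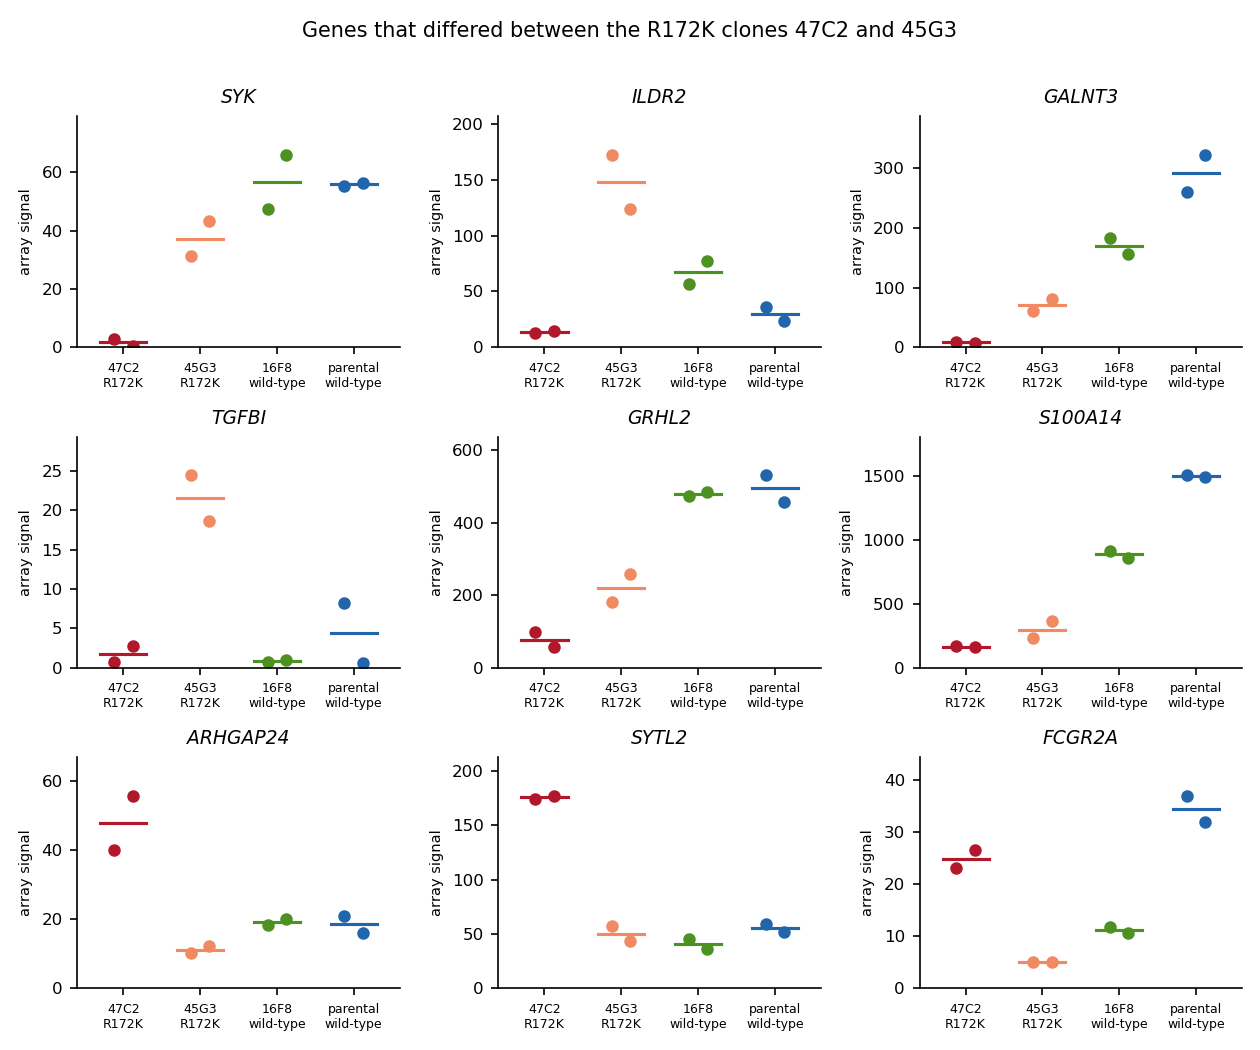
Signals (MAS5 intensity, linear axis from 0) of 9 genes that passed in 47C2 against 45G3, in the 2 arrays of each clone, R172K clones left and wild-type lines right; points are arrays and bars are means of 2 arrays. SYK, GALNT3, GRHL2 and S100A14 are lowest in 47C2, ILDR2 and TGFBI are highest in 45G3, and ARHGAP24 and SYTL2 are highest in 47C2.

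Markers of other cell types did not follow the groups, with 1 exception. The summed signal of 11 colorectal epithelial markers was 10104 to 10868 in R172K arrays, against 9116 to 13119 in wild-type arrays, and 6 of the 11 (VIL1 and CDH17 among them) were under the array median in all 8 arrays. Of 10 fibroblast markers 9 were under the median in all 8 arrays, as were all 7 endothelial markers. The sums were 212 to 305 in R172K arrays against 249 to 377 in wild-type arrays for fibroblast markers, and 11.8 to 19.3 against 16.1 to 29.5 for endothelial markers. The 6 haematopoietic markers on the array summed to 38.1 to 64.3 in R172K arrays and 24.8 to 35.5 in wild-type arrays, which came from LYZ, lysozyme. LYZ gave signals of 27.7 and 32.3 in 47C2 and 47.4 and 22.2 in 45G3, against 19.4 and 9.7 in 16F8 and 9.5 and 8.2 in parental. Without LYZ the sums were 15.9 to 20.3 in R172K arrays against 15.3 to 17.7 in wild-type arrays, and PTPRC, the common leukocyte antigen, was at 2.1 or less in all 8 arrays.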

How the data were processed

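Intensities of 54675 probe sets on 18 one-colour arrays were deposited as a table whose values are MAS5 signals per the submitters' processing notes; for the MAS5 version and settings, the sources used here give nothing. The RNA had been amplified and biotin-labelled, per the labels' protocols. Each array had a trimmed mean of 150.0 over its middle 96% of values, so the arrays had been scaled to 1 level before deposit.

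Probe sets with 1 gene symbol numbered 41091, those with several 1801, and those with none 11721; 62 were controls. A gene was tested on its probe set of highest mean among those at or above the array median in both arrays of at least 1 clone, which left 12541 of 19775 genes. Values were taken as log2(signal + 2.2), 2.2 being their 25th percentile. The tests used limma 3.58.1 under R 4.3.3 (lmFit, eBayes with trend), two-sided, with Benjamini-Hochberg adjustment over all tested genes and a threshold of 0.05. Genotypes were compared on clone means, the clone being the replicate. Clones were compared on arrays, where p-values measure only the spread between replicate arrays of 1 clone. The steps were tested on simulated data. With clone and array noise, the genotype comparison recovered 45 of 100 log2 changes of 1 and 94 of 100 changes of 2. With array noise only, the comparisons of R172K clones with wild-type lines recovered 86 to 91 and 97 to 98 of 100. False calls were 4.62% to 7.54% of the calls across these comparisons.

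Named genes are 9 markers (IDH1, IDH2, ZEB1, ZEB2, CDH1, EPCAM, VIM, CDH2, FN1), the 12 highest and 12 lowest separated genes by their smallest clone difference, 4 genes each way between 47C2 and 45G3, and up to 6 members of a list. The genes of the 25 lists and the members described were chosen with earlier results of these data known. The rule also names 1 gene of chromosome Y, whose level is not reported here. Promoters are from RefSeq (GRCh38.p14), and matplotlib 3.10.9 under Python 3.11.15 made the figures.

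Replicate numbers did not pair the arrays: deviations of same-numbered arrays correlated at -0.093 to 0.026 between clones, except at 0.383 between 16F8 and parental. Alternatives were offsets of 1 and 50, no signal filter, quantile normalization, the probe set of highest variance, no trend, only the 4 clones compared, the clone as a random block, the replicate number as a block, the poly-A controls as a covariate, and leaving out each array or clone.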

Additional observations from a re-analysis of the deposited data

Results flagged for a closer look

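Of 148 named genes with a value, 29 differed between the 2 R172K clones, 47C2 against 45G3, in limma (adjusted p under 0.05, over 12541 genes). 20 were lower in 47C2, as log2 differences: SYK (-3.37), ILDR2 (-3.23), GALNT3 (-2.78), TGFBI (-2.63), TIMP3 (-1.85), VHRT (-1.84), TWIST1 (-1.62), GRHL2 (-1.50), TMEM125 (-1.36), FXYD3 (-1.33), MAL2 (-1.19), SLC2A3 (-1.17), OAS1 (-1.16), TGFB2 (-1.14), ANK3 (-0.97), LTBP1 (-0.96), S100A14 (-0.80), RNF43 (-0.75), RAB25 (-0.61) and RIOX1 (-0.52). 9 were higher in 47C2: CCDC102A (2.05), ARHGAP24 (1.90), FCGR2A (1.89), SYTL2 (1.77), NUPR1 (1.48), IFITM1 (1.46), SLC7A11 (0.70), GDF15 (0.64) and BHLHE40 (0.64). The adjusted p-values ran from 4.27e-07 to 0.0419. Genes named for the largest differences between these clones are among them, so the share of 29 in 148 is a description. Over all genes, 369 differed between these clones, against 92 and 95 without array 1 and array 2 of 47C2, and 551 and 232 without array 1 and array 2 of 45G3.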

How the results depend on the processing

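Of 103 recomputed counts, 80 stayed within 1.5 times the reported count or kept their call. With only the R172K and wild-type clones in the fit, 47C2 against 16F8 gave 463 genes, 45G3 against 16F8 gave 128 and 47C2 against 45G3 gave 198; this fit has fewer residual degrees of freedom. With the clone as a random block, R172K against wild-type gave 123 genes in place of 0, and leaving out 1 clone gave 0 to 721. With the poly-A controls as a covariate, 45G3 against 16F8 gave 605 and 47C2 against 45G3 gave 1128; the cause was not tested. Leaving out 1 array gave 2003 to 2823 genes for 47C2 against parental, 292 to 517 for 47C2 against 16F8, 2539 to 3322 for 45G3 against parental, 103 to 267 for 45G3 against 16F8, 92 to 551 for 47C2 against 45G3, 1579 to 2342 for 16F8 against parental, and 1554 to 2531 separated genes.

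The replicate number as a block gave 3534 genes for 47C2 against parental, 790 for 47C2 against 16F8, 3744 for 45G3 against parental, 290 for 45G3 against 16F8, 388 for 47C2 against 45G3 and 2767 for 16F8 against parental, and moved no count by over 1.5 times. With the probe set of highest variance, IDH1 in R172K against wild-type was 0.25 in place of -0.08; neither passed. The number of comparisons passed of 4 changed in 13 of 155 recomputations: with that probe set to 0 for IDH1, 2 for IDH2, 0 for ZEB1, 4 for FN1 and 1 for SYTL5; with an offset of 50 to 2 for FN1 and 3 for PMEPA1, DRAXIN and IQGAP2; without the signal filter to 2 for FN1, 1 for SYTL5 and 3 for IQGAP2; and with quantile normalization to 1 for EPCAM. The other 142 were equal to the reported number. The offset shrinks differences of weak signals, and the 9 clones of 5 genotypes leave 4 residual degrees of freedom.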

Other observations

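Over chromosomes 1 to 22 and X, the median difference of a chromosome's tested genes lay between -0.09 (chromosome 13) and 0.13 (chromosome 22) for 47C2 against parental, and between -0.07 (chromosome 6) and 0.13 (chromosome 22) for 45G3 against parental. Against 16F8 it lay between -0.06 (chromosome 8) and 0.05 (chromosome 22) for 47C2, and between -0.08 (chromosome 18) and 0.02 (chromosome 22) for 45G3. Of the 24 genes with the widest gaps, SYTL5, BEX4 and GPC3 lie on chromosome X. DRAXIN and S100A14 share chromosome 1, SPARC and IQGAP2 share 5, FOXQ1 and SGK1 share 6, and HAS2 and NCALD share 8. GLIS3 and LCN2 share 9, LINC02458 and VHRT share 12, and FXYD3 and AP1M2 share 19. Each of the others is the only such gene on its chromosome.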
